A study of Mus musculus with 9 samples.

Results

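Genes of lymphatic endothelial identity were followed in endothelial cells (ECs) that had been sorted out of mouse lungs. They comprised 8 genes taken by symbol, of 18193 genes with a probe set on the array: the transcription factors Prox1 and Foxc2, the surface proteins Lyve1, Pdpn and Thy1, and the secreted proteins Mmrn1, Reln and Ptx3. All 8 were measured, each through its probe set of highest mean signal on the 9 arrays, and no filter on dim genes was applied.

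All mice were NSG, an immunodeficient strain without mature T and B lymphocytes, aged 6 to 8 weeks when cancer cells were injected or matched in age to those animals. Metastatic lungs came from mice injected in the tail vein with MDA-MB-231-LM2, human breast cancer cells of a line that spreads to lung. These mice received either the rat antibody DC101 against the VEGF receptor VEGFR2 (40 mg/kg into the peritoneum), or control rat IgG on days 21 and 24, and their lungs were taken on day 25. Healthy lungs came from mice without cancer cells that also received rat IgG, so that an antibody was given in every group. Each group had 3 arrays, called below DC101-treated metastatic, IgG-treated metastatic and healthy. The labels name the arrays biological replicates without saying whether each was a separate mouse, so that p-values cover the spread between samples, which may be technical.

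Lymphatic vessels drain fluid and immune cells from tissues and are lined by ECs that arise mainly from veins. The homeobox factor Prox1 sets and maintains this fate, downstream of factors such as Sox18 and Nr2f2, and growth of the vessels depends on VEGF-C acting through the receptor VEGFR3 (Flt4) with Nrp2 as a coreceptor. In the lung, lymphatic vessels run along airways and larger vessels and beneath the pleura, while the far more numerous capillary ECs belong to the blood circulation.

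The sort took CD31+ cells that lacked CD45 and CD11b (blood cells), EpCAM (epithelium), CD140a and CD140b (fibroblasts and mural cells) and GFP (cancer cells). CD31 is carried by blood and lymphatic ECs alike, so that the arrays hold a mixture in which fewer cells of a type and less RNA per cell cannot be told apart. Pan-endothelial markers were present throughout, with a summed level over 10 genes (log2 of the sum of linear values) of 16.89 to 17.01 on DC101-treated metastatic, 16.95 to 16.96 on IgG-treated metastatic and 17.00 to 17.02 on healthy arrays. Single markers of that list moved. Between IgG-treated metastatic and healthy lungs, 1 of the 10 was called, Emcn (log2 change 0.53, limma adjusted p = 0.0341), while Tek changed by -0.36 (0.0714). With 1 array left out in turn, the Emcn call held in 1 of 6 fits. Arrays of 1 group correlated with r of 0.983 to 0.991 over all genes. The difference between the 3-prime and 5-prime Gapdh control probe sets, which grows as RNA is degraded, was 0.35 to 0.60 on DC101-treated metastatic, 0.47 to 0.57 on IgG-treated metastatic and 0.69 to 0.77 on healthy arrays. It therefore moved with metastasis, and its part in the results was not tested.

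The 250 bases before the start site were read for the members that rose and had an entry in the RefSeq promoter table (mouse GRCm38.p6), to set the sequences of genes that moved together side by side. Capitals mark letters that match a searched motif. The windows lie at chr1:190170828-190171077 (minus strand) for Prox1, chr6:60944067-60944316 (plus strand) for Mmrn1, chr5:22344706-22344955 (minus strand) for Reln and chr3:66219637-66219886 (plus strand) for Ptx3, and each is written 5′ to 3′ on its gene's strand.
Prox1: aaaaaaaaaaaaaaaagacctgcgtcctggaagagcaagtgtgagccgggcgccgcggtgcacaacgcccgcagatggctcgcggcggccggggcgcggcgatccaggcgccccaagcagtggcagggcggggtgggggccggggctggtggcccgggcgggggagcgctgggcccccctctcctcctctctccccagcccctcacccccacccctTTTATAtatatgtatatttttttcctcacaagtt
Mmrn1: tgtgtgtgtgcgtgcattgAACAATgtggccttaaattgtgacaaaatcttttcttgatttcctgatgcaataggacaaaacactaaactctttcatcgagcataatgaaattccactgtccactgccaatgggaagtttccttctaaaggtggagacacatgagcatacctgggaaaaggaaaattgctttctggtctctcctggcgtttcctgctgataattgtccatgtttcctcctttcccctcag
Reln: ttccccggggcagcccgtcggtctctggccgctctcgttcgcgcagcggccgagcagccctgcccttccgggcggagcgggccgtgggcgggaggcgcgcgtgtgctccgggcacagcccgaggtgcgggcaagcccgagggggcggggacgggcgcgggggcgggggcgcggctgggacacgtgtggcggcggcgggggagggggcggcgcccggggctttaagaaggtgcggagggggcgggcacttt
Ptx3: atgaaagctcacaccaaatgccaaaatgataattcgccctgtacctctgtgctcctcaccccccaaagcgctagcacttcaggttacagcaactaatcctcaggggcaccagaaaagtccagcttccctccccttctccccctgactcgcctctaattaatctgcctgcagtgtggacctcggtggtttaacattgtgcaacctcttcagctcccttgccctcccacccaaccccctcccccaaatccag

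These windows differed widely in base composition. The Reln window held 80.0% G and C and 37 CpG pairs and that of Prox1 64.8% and 20 CpG pairs, whereas those of Ptx3 (54.0%, 4 CpG pairs) and Mmrn1 (42.4%, 3 CpG pairs) were near or below the medians of 52.4% and 6 CpG pairs over 32851 mouse promoter windows of this length. Both strands were searched for AACAAT, the core bound by SOX factors, for TAAACA, the forkhead core, and for AGGTCA, an element bound by nuclear receptors. The searches also included AGATAA, which is read by GATA factors, and TATAAA of the TATA box. No match overlapped another. The Mmrn1 window held AACAAT with its first base at position -231, counted so that -1 is the base before the start site, and 9.42% of all windows held this motif. The Prox1 window held the reverse complement of TATAAA at position -34 (12.4% of all windows). No searched motif was found in the Reln and Ptx3 windows. A second start site of Prox1, with a window at chr1:190169516-190169765, had the reverse complement of TAAACA at position -166 (12.0% of all windows). The Pdpn window held the same motif at position -153 and AGGTCA at position -34 (14.0% of all windows). No searched motif occurred in all 6 windows, which belong to 5 of the 8 genes (Lyve1, Thy1 and Foxc2 were not read).

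The first comparison asked how these genes differed between ECs of metastatic and healthy lungs under control IgG. Of the 8 genes, 5 were higher in metastatic lungs, and none was lower, by limma at an adjusted p under 0.05. Prox1 had the largest change of the 8 (4.96-fold), followed by Mmrn1 (3.59-fold), Reln (3.10-fold), Ptx3 (2.80-fold) and Thy1 (2.28-fold). Pdpn, Lyve1 and Foxc2 did not pass the test. Over all 18193 genes, 3.93% were called higher and 2.6% lower (6.53% in all). The 2 groups did not overlap for 7 of the 8 genes (6 higher and Lyve1 lower), against 27.6% of all genes (13% higher and 14.7% lower). The median log2 change of the 8 genes was 1.34, and that of all genes was -0.02.

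**Figure D1:**
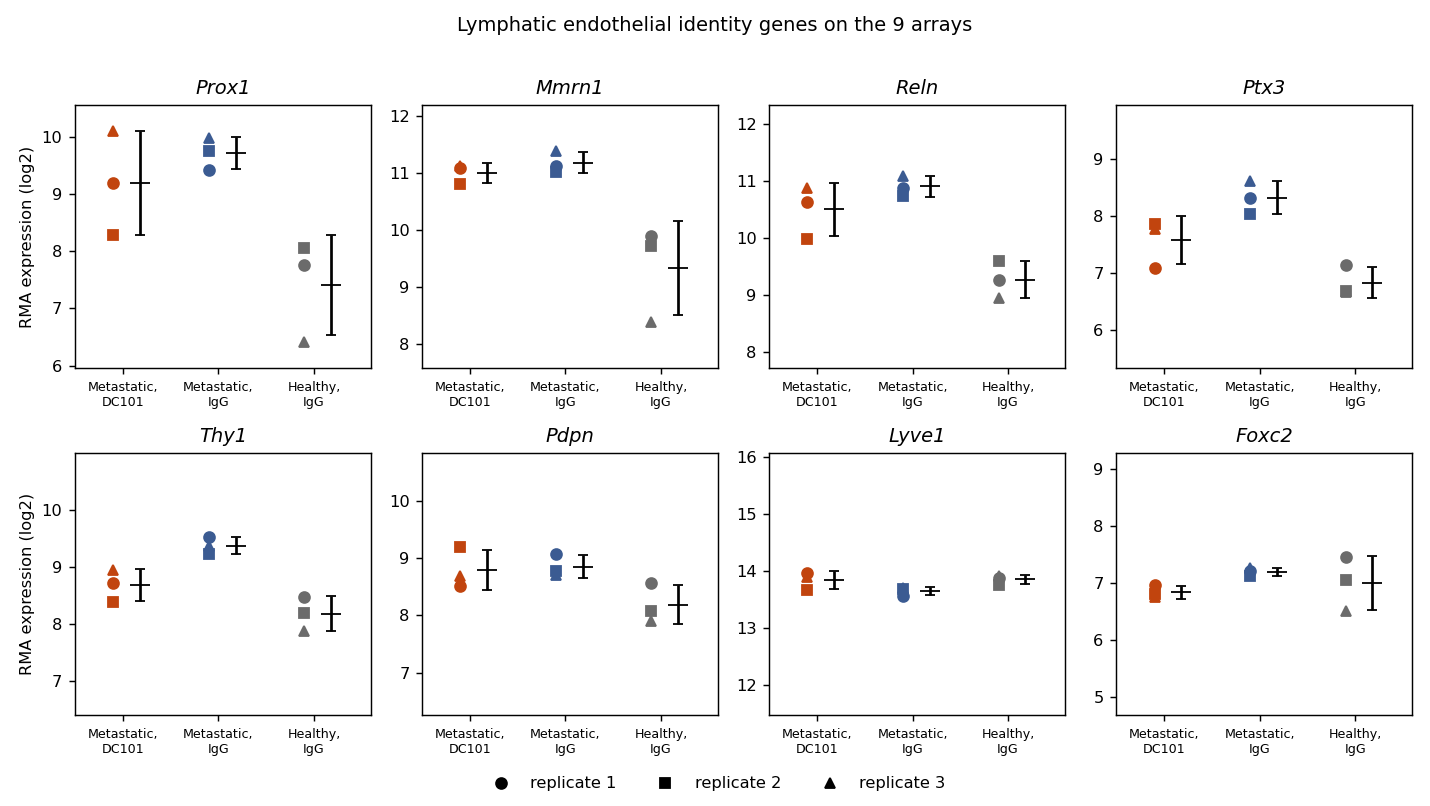
Deposited expression (log2, vertical axes, each spanning the same number of log2 units) of the 8 genes on the 9 arrays. Points are arrays with the replicate number as the shape, and the bars beside them give the mean ± SD of 3 arrays. Prox1, Mmrn1, Reln, Ptx3 and Thy1 were each higher on all 3 IgG-treated metastatic arrays than on any healthy array, and Lyve1 stayed between 13.57 and 13.97 on all 9.

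Prox1, the factor that sets lymphatic fate, read 9.20, 8.28 and 10.10 on DC101-treated metastatic arrays, 9.42, 9.75 and 9.99 on IgG-treated metastatic arrays and 7.76, 8.05 and 6.41 on healthy arrays (log2, replicates 1 to 3). The IgG-treated metastatic arrays lay close together and above every healthy array, and the lowest value of all was healthy replicate 3. The means were 9.72 ± 0.28 in IgG-treated metastatic and 7.41 ± 0.88 in healthy lungs (SD, n = 3 each), a log2 change of 2.31 (SE 0.41, 95% interval 1.35 to 3.28, adjusted p = 0.0208). Only 0.341% of all genes changed by more in this comparison. A second Prox1 probe set also rose, by 1.39 (adjusted p = 0.0212 over 45037 probe sets), and the third, with a change of 0.60, did not pass (adjusted p = 0.412).

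Reln encodes reelin, a large secreted glycoprotein made by ECs of collecting lymphatic vessels. It read 10.64, 9.99 and 10.87 on DC101-treated metastatic, 10.87, 10.74 and 11.09 on IgG-treated metastatic and 9.26, 9.59 and 8.95 on healthy arrays. Groups of metastatic and healthy lungs did not overlap under either antibody. The change between IgG-treated metastatic and healthy lungs was 1.63 (SE 0.18, 95% interval 1.21 to 2.05, adjusted p = 0.00381), the smallest adjusted p among the 8 genes. A dimmer Reln probe set, with a change of 0.16, did not pass (adjusted p = 0.64).

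Mmrn1 encodes multimerin 1, a secreted protein of lymphatic ECs that platelets and megakaryocytes also store. It read 11.09, 10.80 and 11.12 on DC101-treated metastatic, 11.13, 11.02 and 11.38 on IgG-treated metastatic and 9.89, 9.72 and 8.39 on healthy arrays, with healthy replicate 3 again the lowest. The change between IgG-treated metastatic and healthy lungs was 1.84 (SE 0.38, 95% interval 0.96 to 2.73, adjusted p = 0.0338). Tested among 45037 probe sets in place of 18193 genes, the same probe set had an adjusted p of 0.0522, and a dimmer one changed by 0.07 (adjusted p = 0.805). Of 7 platelet markers measured, 4 fell in IgG-treated metastatic lungs, among them Ppbp (-1.65) and Pf4 (-1.59), which platelets carry in their granules. The summed level of the list was 10.91 to 11.08 there and 11.98 to 12.17 in healthy lungs. The part of platelet RNA in the Mmrn1 values was not tested.

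Ptx3 encodes a long pentraxin, a secreted molecule of innate immunity that marks a subset of lymphatic ECs in the mouse. It read 7.09, 7.86 and 7.78 on DC101-treated metastatic, 8.31, 8.03 and 8.62 on IgG-treated metastatic and 7.14, 6.69 and 6.66 on healthy arrays. The IgG-treated metastatic arrays stood above the other 6. Their difference from healthy arrays was 1.49 (SE 0.19, 95% interval 1.04 to 1.94, adjusted p = 0.00665), whereas a second Ptx3 probe set showed 0.02 (adjusted p = 0.947). Averaged over the 9 arrays, the second probe set read 7.18 and the chosen one 7.58. On healthy arrays the second read 7.18, 7.05 and 7.16, each above the chosen one. The choice between them therefore rested on the metastatic arrays.

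Thy1 encodes a glycolipid-anchored surface protein of mouse lymphatic ECs, and also of T cells and fibroblasts. It read 8.72, 8.39 and 8.95 on DC101-treated metastatic, 9.52, 9.22 and 9.36 on IgG-treated metastatic and 8.48, 8.19 and 7.87 on healthy arrays, so that here too the IgG-treated metastatic arrays stood above the other 6. The difference from healthy arrays was 1.19 (SE 0.17, 95% interval 0.79 to 1.58, adjusted p = 0.00937). Fibroblast and mural markers were mixed, with 4 of 11 changes above 0 and a median of -0.08. Of 11, the collagens Col1a1 (1.85), Col1a2 (1.29) and Col3a1 (0.87) rose and Dcn (-1.05), a matrix proteoglycan, fell, while Pdgfra (-0.57, adjusted p = 0.0596) and Pdgfrb (-0.12, adjusted p = 0.66), which encode the sorted-out CD140a and CD140b, did not pass. With 1 array left out in turn, the call held in 6 of 6 fits for Col1a1, in 3 for Col1a2 and in 1 each for Col3a1 and Dcn. The summed level of that list was 14.48 to 15.09 on IgG-treated metastatic and 14.01 to 14.37 on healthy arrays, and its part in the Thy1 result was not tested. Bright genes weigh most in such a sum, and Col1a2 and Col3a1 averaged 12.86 and 13.19 on IgG-treated metastatic arrays. T and B lymphocyte markers had no call among 6, with a summed level of 9.75 to 9.86 on IgG-treated metastatic and 9.89 to 10.10 on healthy arrays. The part of lymphocytes in the Thy1 values was not tested either.

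The remaining genes did not pass. Pdpn encodes podoplanin, a mucin-like protein of lymphatic ECs, alveolar type 1 cells and mesothelium that binds the platelet receptor Clec1b. It read 8.52, 9.19 and 8.68 on DC101-treated metastatic, 9.08, 8.77 and 8.70 on IgG-treated metastatic and 8.56, 8.08 and 7.90 on healthy arrays, a difference between IgG-treated metastatic and healthy lungs of 0.67 (SE 0.19, 95% interval 0.22 to 1.12, adjusted p = 0.0932) with no overlap between these groups. Alveolar type 1 markers ran lower in IgG-treated metastatic lungs (2 of 6 fell, Ager by 1.49 and Hopx by 0.69, and the summed level was 13.97 to 14.27 there against 14.56 to 14.64 in healthy lungs). Mesothelial markers had no call among 8, with summed levels of 10.68 to 11.24 on IgG-treated metastatic and 10.50 to 11.41 on healthy arrays. The part of alveolar type 1 and mesothelial cells in the Pdpn values was not tested.

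Lyve1 encodes a hyaluronan receptor of lymphatic capillaries that some macrophages also carry. It read 13.97, 13.66 and 13.89 on DC101-treated metastatic, 13.57, 13.68 and 13.71 on IgG-treated metastatic and 13.88, 13.76 and 13.92 on healthy arrays. The difference between IgG-treated metastatic and healthy lungs was -0.20 (SE 0.09, 95% interval -0.42 to 0.02, adjusted p = 0.28), with all 3 metastatic arrays below the healthy ones, and a second Lyve1 probe set gave -0.17 (adjusted p = 0.476). The upper end of the Lyve1 interval lay below the lower end for Prox1, Mmrn1, Reln, Ptx3 and Thy1, and also for Pdpn, which was not called. The healthy mean of Lyve1, 13.85, was near that of the pan-endothelial marker Kdr (13.80), while Prox1 averaged 7.41 there. Which of the sorted cells gave the Lyve1 signal was not tested, so its values cannot be read as those of lymphatic ECs alone. Foxc2, a forkhead factor needed for lymphatic valves, read 6.97, 6.81 and 6.75 on DC101-treated metastatic, 7.21, 7.12 and 7.26 on IgG-treated metastatic and 7.45, 7.05 and 6.51 on healthy arrays. Its difference of 0.20 (SE 0.22, 95% interval -0.33 to 0.72, adjusted p = 0.674) was within the spread of the healthy arrays. Deposited values reached 14.84 at most, and changes are compressed toward either end of such a scale.

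Macrophage markers, which bear on Lyve1 and Ptx3, were mixed. The complement genes C1qa (1.54), C1qb (1.38) and C1qc (0.70) rose among 9 markers, none fell, and the summed level of the list was 12.70 to 13.07 on IgG-treated metastatic and 12.93 to 13.11 on healthy arrays. The part of macrophage RNA in the Ptx3 result was not tested, and each of the 3 calls was lost in at least 4 of the 6 fits with 1 array left out. Cell division markers all rose in IgG-treated metastatic lungs (9 of 9, median change 3.26), with Mki67 at 12.20 ± 0.46 there and 8.44 ± 0.37 in healthy lungs (SD, n = 3 each). Dividing blood and lymphatic ECs cannot be told apart in these bulk samples.

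**Figure D2:**
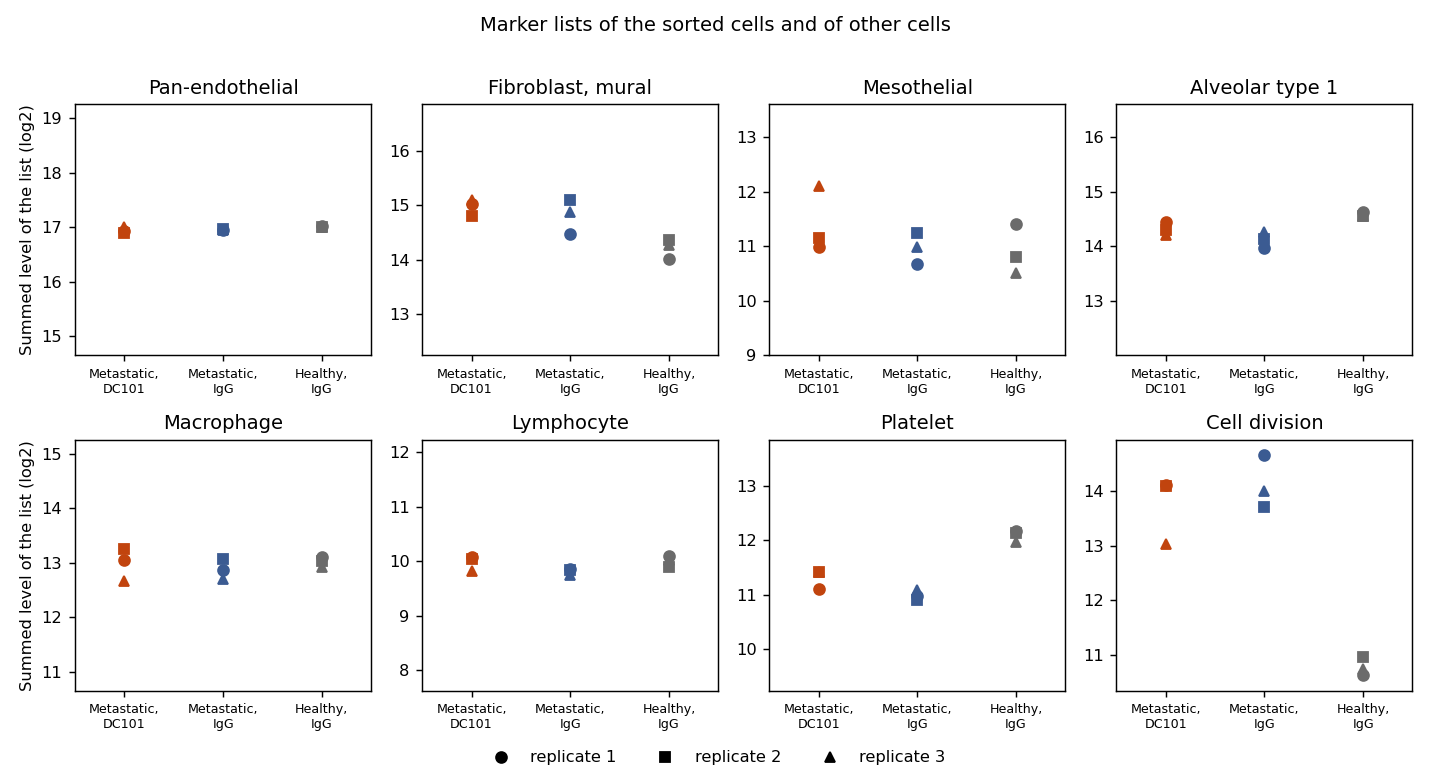
Summed level (log2 of the sum of linear values, vertical axes) of marker lists on each array, for the sorted cells and for other cells the sort could hold. Points are arrays with the replicate number as the shape. Pan-endothelial levels lay within 16.89 to 17.02 on all 9 arrays, platelet and alveolar type 1 levels were lower on every metastatic array than on any healthy array, and cell division levels were higher.

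Healthy replicate 3 was the lowest healthy array for 7 of the 8 genes, all but Lyve1, while 33.8% of all genes had their lowest healthy value there. Without it the same 5 genes were called, with changes of 1.81 for Prox1 (adjusted p = 0.00886), 1.37 for Mmrn1 (0.0085), 1.48 for Reln (0.00932), 1.40 for Ptx3 (0.025) and 1.03 for Thy1 (0.02). With another array left out, the calls of Prox1 and Mmrn1 were lost in some fits, while the changes stayed near those of the full fit (2.31 and 1.84). Prox1 missed the threshold without IgG-treated metastatic replicate 2 (2.295, adjusted p = 0.0663) or 3 (2.177, 0.0786) or healthy replicate 1 (2.487, 0.0563). Mmrn1 missed it without IgG-treated metastatic replicate 1 (1.868, 0.0912), 2 (1.922, 0.0812) or 3 (1.742, 0.11) or healthy replicate 2 (2.036, 0.056). Fits with 1 array left out called 556 to 759 of all genes, in place of 1188. Reln, Ptx3 and Thy1 kept their calls in each of the 6 fits that left out an array. Among the fits that held them, their calls ended only when each gene's variance was used without moderation (adjusted p of 0.0577 to 0.0835). Over the 9 arrays Ptx3 (7.58), Thy1 (8.745) and Prox1 (8.773) averaged below the median gene (9.03), so a fit on brighter genes alone did not hold them.

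The second comparison asked whether blocking VEGFR2 changed these genes in metastatic lungs. None of the 8 was called between DC101-treated and IgG-treated metastatic lungs, where 0% of the 18193 genes passed (limma, adjusted p under 0.05, and under each of the alternatives tried, which included leaving out each array). At an unadjusted p under 0.05 there were 3 of the 8 genes and 1209 of all genes (6.65%). The differences were below 0 for 7 of the 8 genes, with a median of -0.38 against -0.02 over all genes. This comparison shares the IgG-treated metastatic arrays with the first. Values that happened to be high on those arrays would raise the first difference and lower this one, so these signs are not separate evidence.

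The 3 genes were Ptx3, Thy1 and Foxc2, and for each of them all DC101-treated arrays lay below all IgG-treated metastatic arrays, as did those of 6.95% of all genes (5.4% lay above, 12.4% in all). Ptx3 averaged 7.58 ± 0.42 with DC101 and 8.32 ± 0.29 with IgG, a difference of -0.74 (95% interval -1.29 to -0.19, adjusted p = 0.742). Thy1 averaged 8.68 ± 0.28 with DC101 and 9.37 ± 0.15 with IgG, a difference of -0.68 (95% interval -1.07 to -0.30, adjusted p = 0.737). Foxc2 averaged 6.84 ± 0.12 with DC101 and 7.20 ± 0.07 with IgG, a difference of -0.36 (95% interval -0.61 to -0.10, adjusted p = 0.742; SDs over 3 arrays). None of these passed after adjustment over all genes.

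For the others the intervals, which are not adjusted for the number of genes, were as follows. Mmrn1 differed by -0.17 (95% interval -0.51 to 0.16, adjusted p = 0.834) and Lyve1 by 0.19 (-0.09 to 0.47, adjusted p = 0.798), the narrowest of these. Prox1 had the widest, at -0.52 (95% interval -1.49 to 0.44, adjusted p = 0.826), and its DC101-treated arrays ranged from 8.28 in replicate 2 to 10.10 in replicate 3. The difference was -0.07 without DC101-treated replicate 2 and -0.98 without DC101-treated replicate 3. Replicate 2 was the lowest DC101-treated array for Prox1, Lyve1, Mmrn1, Reln and Thy1, whereas 29% of all genes were lowest there. Reln differed by -0.40 (95% interval -0.93 to 0.13, adjusted p = 0.772; -0.15 without DC101-treated replicate 2) and Pdpn by -0.05 (-0.51 to 0.40, adjusted p = 0.97).

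**Figure D3:**
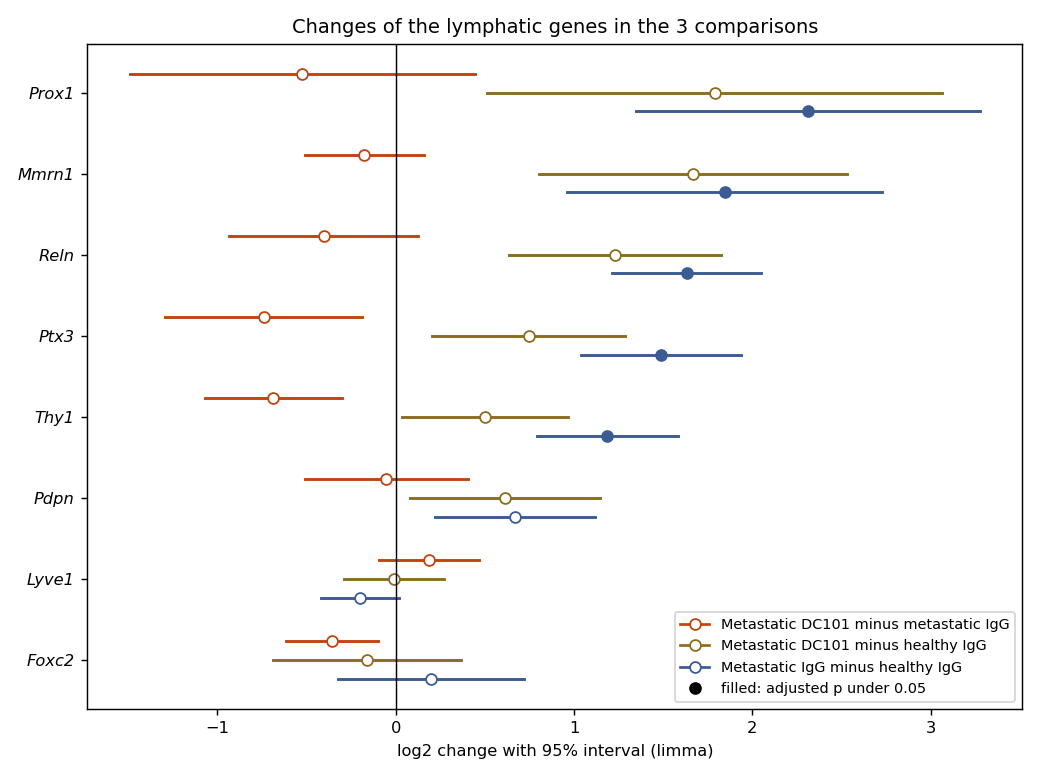
log2 change (horizontal axis) of each of the 8 genes in the 3 comparisons, with the 95% interval of limma as the line and a filled point for an adjusted p under 0.05. Filled points were found for Prox1, Mmrn1, Reln, Ptx3 and Thy1 in IgG-treated metastatic against healthy lungs and in no other comparison, and the intervals of Ptx3, Thy1 and Foxc2 in DC101-treated against IgG-treated metastatic lungs lay below 0.

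The comparison of DC101-treated metastatic with healthy lungs shares the healthy arrays with the first and the DC101 arrays with the second, so that its values are given beside theirs and not as separate evidence. None of the 8 genes was called, against 2.42% of all genes (440 of 18193). At an unadjusted limma p under 0.05 there were 6 of the 8 genes, all higher, and 17% of all genes in either direction. The median change of the 8 was 0.68, against -0.04 over all genes. Reln (1.23, adjusted p = 0.0592), Mmrn1 (1.67, adjusted p = 0.0727) and Prox1 (1.79, adjusted p = 0.159) had no overlap between these groups, with every DC101-treated array above every healthy array (9.44% of all genes did so, and 13.6% lay below, 23.1% in all). Ptx3 stood at 0.74 (adjusted p = 0.167), Pdpn at 0.62 (0.231) and Thy1 at 0.50 (0.262), each with overlap, and Lyve1 (-0.01, 0.98) and Foxc2 (-0.16, 0.777) were near 0. Mmrn1 and Reln passed in 5 of 15 alternatives each, Mmrn1 among them without healthy replicate 3 (1.20, adjusted p = 0.0281).

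By their means the 8 genes took 3 orders. Prox1, Pdpn, Mmrn1, Reln, Ptx3 and Thy1 ran from IgG-treated metastatic through DC101-treated metastatic to healthy lungs, Foxc2 from IgG-treated metastatic through healthy to DC101-treated metastatic, and Lyve1 from healthy through DC101-treated to IgG-treated metastatic. These orders come from the same arrays as the comparisons and are not separate evidence. Neighbors in these orders were not called different for any of the 8 genes. The DC101-treated mean of Ptx3 lay 0.74 below the IgG-treated metastatic and 0.74 above the healthy mean, whereas that of Mmrn1 lay 0.17 below and 1.67 above.

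Across the 9 arrays Reln was the gene most like Prox1 of 18192 (Pearson r = 0.967, Spearman rho = 0.917). Mmrn1 ranked 7 (r = 0.938) and Thy1 66 (r = 0.881). These correlations are descriptions over arrays of 3 groups, and the difference between metastatic and healthy lungs contributes to each. As deviations from the group means, pooled over the 9 arrays, r with Prox1 was 0.909 for Reln, 0.782 for Mmrn1 and 0.769 for Thy1. The largest Prox1 deviations were -0.915 and 0.908 in DC101-treated replicates 2 and 3 and -0.997 in healthy replicate 3. On IgG-treated metastatic replicates 1, 2 and 3, Prox1 deviated by -0.30, 0.03 and 0.27 and Thy1 by 0.16, -0.15 and -0.01, so these genes did not run together in that group. The pooled value was 0.123 with Ptx3, -0.167 with Pdpn and 0.265 with Lyve1, against 0.766, 0.594 and -0.324 over the 9 arrays. Without the arrays farthest from the Prox1 median (healthy replicates 3 and 1), r across the groups was 0.95 with Reln, 0.81 with Mmrn1 and 0.823 with Thy1.

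**Figure D4:**
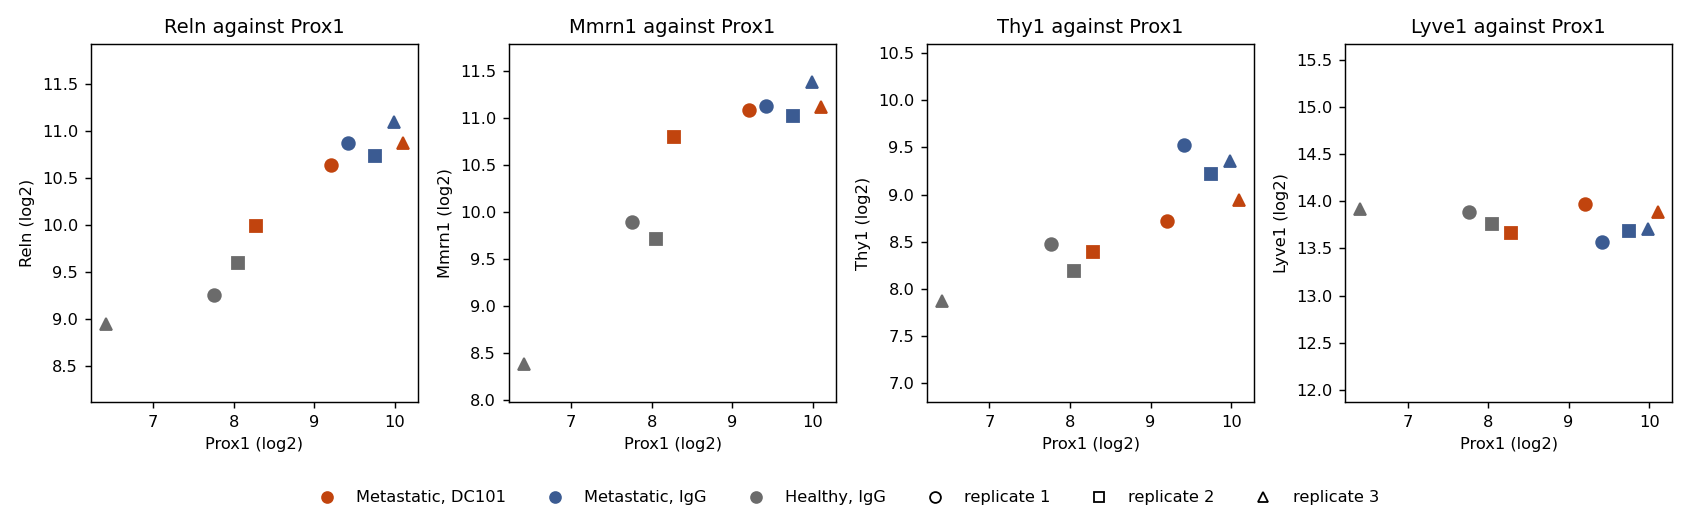
Reln, Mmrn1, Thy1 and Lyve1 (vertical axes, log2) against Prox1 (horizontal axis, log2) on the 9 arrays, with color for the group and shape for the replicate number. Reln ran with Prox1 over the whole range (r = 0.967 over 9 arrays), healthy replicate 3 was lowest for Prox1, Reln, Mmrn1 and Thy1, and Lyve1 was flat (r = -0.324).

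Outside the 8 genes, Mmp14, Zfp46, Tcf4, Ints2 and Tcaf2 were the 5 most like Prox1 over the 9 arrays. Mmp14, which encodes a membrane-bound matrix metalloproteinase, ordered the 9 arrays exactly as Prox1 did (rho = 1, r = 0.963, and 0.885 within groups). It was 11.43 ± 0.05 in IgG-treated metastatic and 10.55 ± 0.17 in healthy lungs (SD, n = 3 each; change 0.88, adjusted p = 0.00599). Zfp46 encodes a zinc finger protein (r = 0.959, and 0.851 within groups), Tcf4 a basic helix-loop-helix factor (0.949 and 0.841), Ints2 a subunit of the Integrator complex (0.939 and 0.822) and Tcaf2 a regulator of TRP channels (0.938 and 0.795).

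Other genes of lymphatic vessels were read from 4 lists. The arrays do not separate blood from lymphatic ECs, and which of them expressed these genes was not tested. Growth factors, their processing enzymes and receptors moved in both directions between IgG-treated metastatic and healthy lungs, with 2 of 15 higher and 2 lower. Adm, the peptide adrenomedullin that acts on lymphatic growth, averaged 11.22 ± 0.07 in IgG-treated metastatic and 9.59 ± 0.27 in healthy lungs (change 1.63, SE 0.14, adjusted p = 0.00169). Nrp2, the coreceptor of VEGF-C, averaged 12.24 ± 0.08 in IgG-treated metastatic and 10.65 ± 0.23 in healthy lungs (change 1.59, SE 0.13, adjusted p = 0.00141). Angpt1, a ligand of the receptor Tek, fell by 0.98 (adjusted p = 0.00882), and Vegfd, a ligand of VEGFR3, fell by 0.96 (adjusted p = 0.0385). The receptor Flt4 itself changed by 0.41 (adjusted p = 0.0712) and Vegfc by -0.34 (adjusted p = 0.0631), neither past the threshold. The median of this list was -0.04, close to that of all genes.

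Among other transcription factors and valve genes, 5 of 16 rose and 2 fell. Gja1, a connexin of gap junctions found at lymphatic valves, averaged 12.56 ± 0.12 in IgG-treated metastatic and 10.75 ± 0.41 in healthy lungs (change 1.81, SE 0.20, adjusted p = 0.0042). Maf, a leucine zipper factor, rose by 0.98 (adjusted p = 0.00462) and Tbx1, a T-box factor of lymphatic development, by 0.82 (adjusted p = 0.0189). Fgfr3, a receptor that Prox1 is known to induce, went the other way and fell by 0.76 (adjusted p = 0.0101). Nr2f2, which acts upstream of Prox1, rose by 0.66 (adjusted p = 0.0289), and Sox18 did not pass (-0.12, adjusted p = 0.496). The median of the list was -0.09.

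Other lymphatic markers stood closest to the 8 genes, with 5 of 11 higher, 1 lower and a median of 0.56. Sema3a, a secreted guidance molecule that acts in lymphatic valve formation, averaged 10.60 ± 0.30 in IgG-treated metastatic and 8.92 ± 0.34 in healthy lungs (change 1.68, SE 0.21, adjusted p = 0.00627). Cp, the copper protein ceruloplasmin, rose by 1.51 (adjusted p = 0.0141), Nts, the peptide neurotensin, by 1.16 (adjusted p = 0.0312) and Sema3d, another semaphorin, by 0.88 (adjusted p = 0.024). The member that fell was Cd9, a tetraspanin (-0.39, adjusted p = 0.0456).

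Binding partners of the 8 gene products had 1 call in each direction among 13. Itgb3, the integrin chain beta 3, rose by 1.07 (adjusted p = 0.0112), and Cd44, a hyaluronan receptor like Lyve1, fell by 0.68 (adjusted p = 0.0334). The reelin receptors Vldlr and Lrp8 and the podoplanin receptor Clec1b were not called. Over the 9 arrays Maf (r = 0.912), Tbx1 (0.878), Gja1 (0.87), Cp (0.863) and Itgb3 (0.862) ran most like Prox1 in these lists, and Cd44 ran opposite (-0.921). With 1 array left out in turn, the calls of Adm, Nrp2, Angpt1, Gja1, Maf, Fgfr3, Sema3a and Itgb3 held in 6 of 6 fits, those of Cp in 3, Tbx1 and Sema3d in 2, and Vegfd, Nts and Cd44 in 1. Read through the probe set of highest variance, Fgfr3 (adjusted p = 0.155), Itgb3 (0.0917) and Cd44 (0.314) were not called.

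**Figure D5:**
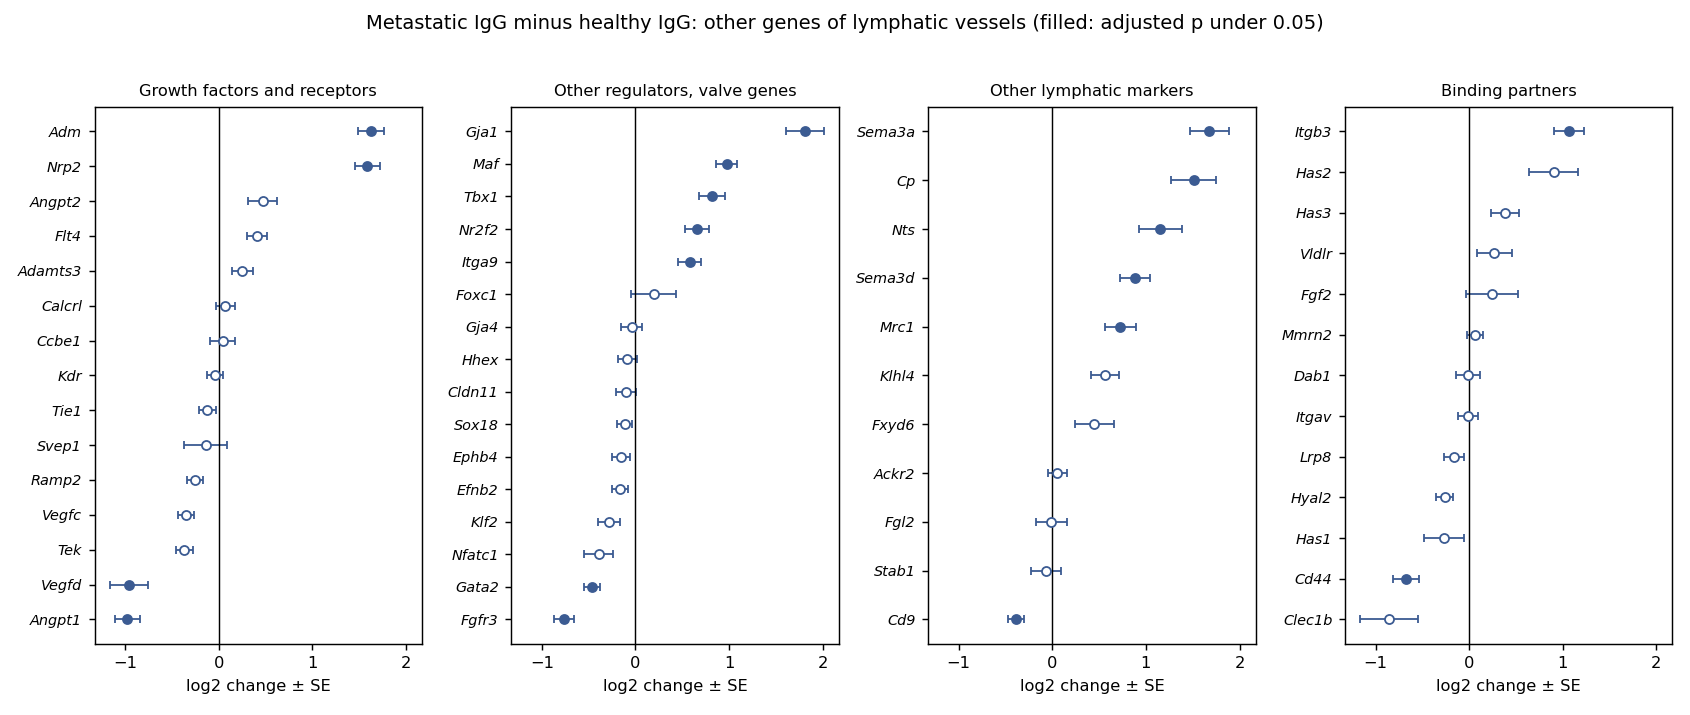
log2 change ± SE (horizontal axes) between IgG-treated metastatic and healthy lungs for 4 lists of other genes of lymphatic vessels, filled where the adjusted p was under 0.05. Adm and Nrp2 rose by 1.63 and 1.59 while Angpt1 and Vegfd fell by 0.98 and 0.96, and 5 of 11 other lymphatic markers rose.

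With DC101 none of these genes was called against IgG in metastatic lungs. The gene with the smallest adjusted p was Vegfd among growth factors and receptors (0.58, adjusted p = 0.742), Gja1 among regulators and valve genes (-0.57, adjusted p = 0.737), Klhl4 among markers (-0.65, adjusted p = 0.742) and Has3, a hyaluronan synthase, among partners (-0.58, adjusted p = 0.737). Against healthy lungs, DC101-treated metastatic lungs had calls for Nrp2 (1.30, adjusted p = 0.00748), Adm (1.18, 0.0304), Gja1 (1.24, 0.037), Tbx1 (0.81, 0.0458), Cp (1.88, 0.0147), Sema3a (1.39, 0.0385) and Nts (0.84, 0.047), all higher and all also called in IgG-treated metastatic lungs. Of these, only Nrp2 kept its call in 6 of 6 fits with 1 array left out, Cp kept it in 4, Adm and Sema3a in 1 and the others in 0. Read through the probe set of highest variance, Nrp2 (adjusted p = 0.116) and Adm (0.194) were not called. Among markers of other cells in that comparison, Wt1, a mesothelial transcription factor, was higher (1.35, adjusted p = 0.0276, held in 1 of 6 fits with 1 array left out), the summed mesothelial level was 10.99 to 12.10 on DC101-treated arrays and 10.50 to 11.41 on healthy arrays, and the part of these cells in the Pdpn values was not tested. Col1a1 (2.03, adjusted p = 0.00672), Col1a2 (1.36, 0.0213) and Col3a1 (1.04, 0.01) were higher among the 11 fibroblast and mural markers. With 1 array left out in turn, the call held in 6 of 6 fits for Col1a1, in 1 for Col1a2 and in 5 for Col3a1. Of the 11 changes 7 were above 0, with a median of 0.07. The summed level of these markers was 14.81 to 15.10 on DC101-treated and 14.01 to 14.37 on healthy arrays, and their part in the Thy1 values was not tested. Of 7 platelet markers 3 were called lower, and with 1 array left out the call held in 3 of 6 fits for Tubb1 and in 1 each for Ppbp and Pf4. Of 9 cell division genes 9 were called higher.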

How the data were processed

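RNA of sorted lung ECs was amplified with a 3-prime in vitro transcription kit and hybridized to Affymetrix mouse arrays, 9 in all. The authors normalized the arrays by robust multiarray averaging (RMA) in Chipster, and the deposited values are log2 expression per probe set. The log base is not written in the table and was taken from the method. Because RMA gives all arrays the same distribution, a change in total RNA per cell cannot be seen. The table carries no detection calls.

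Of 45101 probe sets, 64 controls were left out, and 34945 had 1 gene symbol in the platform annotation (the 932 with several symbols and the 9160 unnamed ones entered only the fits over all probe sets, which gave the values of second probe sets, and not the gene table). Probe set choice gave 18193 genes, by the highest mean over 9 arrays. Per comparison, a linear model on its 6 arrays was fitted with lmFit and eBayes (two-sided, limma 3.58.1, R 4.3.3). Benjamini-Hochberg adjustment ran over all genes, with 0.05 as the threshold for a call. SDs are over 3 arrays, SEs and 95% intervals are limma's, and the number of arrays limits the precision. With 3 arrays against 3 an exact permutation test cannot go below 0.1 and was not used.

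The 8 genes, the 12 other lists and the alternatives were chosen with earlier results of these data known. From each list up to 4 called genes with the largest change were to be named, or else the gene with the smallest adjusted p, and the 5 genes most like Prox1. Genes named beyond this rule (Flt4, Vegfc, Nr2f2, Sox18, Cd9, Vldlr, Lrp8, Clec1b, Pdgfra and Pdgfrb) were chosen after their values were seen. Alternatives were another choice of probe set per gene, brighter genes alone, no probe sets of cross-hybridizing types, centering on pan-endothelial markers, 1 fit on all arrays, a replicate block, other variance settings and leaving out each array.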

Additional observations from a re-analysis of the deposited data

How the results depend on the processing

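The directions of the 5 called genes (Prox1, Mmrn1, Reln, Ptx3 and Thy1) in IgG-treated metastatic against healthy lungs were the same in all alternatives that held them. Prox1, Ptx3 and Thy1 were absent among brighter genes alone. There, 1188 genes and 5 of the 8 were called. These counts became 376 and 0 without variance moderation, 2 of the 3 lymphatic genes above the median brightness, and 556 to 759 genes and 3 to 5 of the 8 when 1 array was left out (3 without IgG-treated metastatic replicate 2 or 3). The mean of all probe sets of a gene lowered Prox1 to 1.43, Mmrn1 to 0.96, Reln to 0.90 and Ptx3 to 0.75 with the calls kept.

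In DC101-treated metastatic against healthy lungs, 440 genes and 0 of the 8 were called. The gene count was 273 with the probe set of highest variance, 662 in 1 fit on all arrays, 14 without variance moderation and 110 to 361 with 1 array left out. The lymphatic count was 2, Mmrn1 and Reln, among brighter genes, with centering on pan-endothelial markers, in 1 fit on all arrays and with a mean-variance trend, and 0 to 1 with 1 array left out.

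Replicate numbers recur in every group, but same-numbered arrays did not deviate together (r of -0.054 to 0.084). With the numbers as a replicate block, 689 genes and 4 of the 8 were called in IgG-treated metastatic against healthy lungs (Prox1 and Mmrn1 lost, Pdpn gained), 0 genes between the metastatic groups and 247 genes and 0 of the 8 in DC101-treated metastatic against healthy lungs.

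Signs turned only for small uncalled values. Foxc2 ran from -0.049 (without healthy replicate 3) to 0.419 in IgG-treated metastatic against healthy lungs, and from -0.406 to 0.062 (without healthy replicate 1) in DC101-treated metastatic against healthy lungs. Pdpn ran from -0.25 to 0.086 between the metastatic groups. Lyve1 ran from -0.075 to 0.079 in DC101-treated metastatic against healthy lungs with 1 array left out, and was 0.003 with the mean of its probe sets and 0.111 after centering. The causes were not tested.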
